A study of Mus musculus with 6 samples.

Results

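The genes described here are 10 members of the AP-1 group of transcription factors and their relatives: Fos, Fosb, Fosl1 and Fosl2 of the Fos family, Jun, Junb and Jund of the Jun family, and Atf3, Batf and Maff. They were taken by symbol from the authors' table of 38924 genes, each symbol occurred once, and all 10 passed the filter on low counts that left 17116 genes for testing. Poly(A)-selected RNA had been sequenced from mouse cells to compare induced myogenic progenitor cells (iMPCs), which are made from fibroblasts, with satellite cells, the resident stem cells of muscle fibres. The groups were iMPCs sorted as Pax7-nGFP+ (called Pax7-positive, 1 library), iMPCs sorted as Pax7-nGFP- (called Pax7-negative, 1 library), activated satellite cells titled ASCmyo-Pax7-plus-p1 (ASC, 1 library), mouse embryonic fibroblasts (MEF, 1 library) and quiescent satellite cells (QSC, 2 libraries, mouse 1 and mouse 3). Pax7-nGFP is a nuclear green fluorescent reporter of Pax7, a paired-box factor specific to satellite cells in muscle. Per the labels' protocols, the medium for expanding iMPCs had no doxycycline, the drug added during reprogramming, and contained basic FGF, 5 µM forskolin, which raises cAMP, 5 µM RepSox, which inhibits the TGF-beta type I receptor, and 3 µM of a GSK3 inhibitor. The labels do not give strain, age, the fibroblast source of the sorted iMPCs, how the QSC were isolated, or the medium of the ASC and MEF libraries.

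Fos and Jun proteins carry a basic region that grips DNA and a leucine zipper through which they pair, and the resulting dimers are called AP-1. Jun proteins can pair with each other, whereas Fos proteins need a Jun partner. Several of these genes are immediate early genes, which are transcribed within minutes of growth factor, stress or injury signals without new protein synthesis. In skeletal muscle Fos and Jun are known to be induced in satellite cells by injury and by dissociation of the tissue, and sustained Jun or Fos activity is known to oppose MyoD-driven differentiation in cultured myoblasts.

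Library totals ranged from 20859611 to 29279686 counts. Pax7 had 1176 counts in Pax7-positive iMPCs, 185 in Pax7-negative iMPCs, 460 in ASC and 0 in MEF, against 723 and 3532 in QSC of mouse 1 and mouse 3. The QSC mice differed in Xist, at 0.0954 CPM in mouse 1 and 530.1 CPM in mouse 3, so the spread between them includes any difference between the sexes. In QSC of mouse 1 and mouse 3, satellite cell markers summed to 759 and 748 RPKM, differentiating muscle markers to 154 and 5.13 RPKM, endothelial markers to 57.2 and 10.8 RPKM, immune markers to 126 and 54.1 RPKM and erythroid markers to 1636 and 27.1 RPKM. In the other 4 libraries endothelial markers summed to between 5.67 and 31.4 RPKM, immune markers to between 11.6 and 25.7 RPKM and erythroid markers to between 0.989 and 5.93 RPKM. Here and below a gene fell or rose where it differed from QSC at an adjusted p below 0.05 (edgeR, Benjamini-Hochberg). Of all genes tested 9.31% fell in Pax7-positive iMPCs, 6.57% in Pax7-negative iMPCs, 8.24% in ASC and 8.03% in MEF. With library size scaling these shares were 3.1%, 1.92%, 2.93% and 2.69%. Of 8 endothelial markers 6 fell in Pax7-positive iMPCs, 2 in Pax7-negative iMPCs, 6 in ASC and 5 in MEF. With library size scaling only 0, 0, 1 and 0 of them fell. Of 7 immune markers tested 4, 3, 3 and 1 fell in the same order, and of 5 erythroid markers tested 5, 4, 5 and 4 fell. With library size scaling 1, 1, 1 and 0 immune markers fell, and 0 erythroid markers fell in each group. In Pax7-positive iMPCs, Pax7-negative iMPCs and ASC 1 immune marker, Laptm5, rose, where 11.3%, 12.1% and 11.8% of all genes rose. Laptm5 had 577, 1074 and 449 counts there, against 83 and 67 in QSC of mouse 1 and mouse 3. Kdr, Cldn5, Lyz2, Cd52, Tyrobp, Hbb-bs, Hbb-bt and Alas2 were among the markers at 0 counts in Pax7-positive iMPCs, while Egfl7 had 266 counts there, against 760 and 100 in QSC, and Kdr had 403 counts in MEF, against 324 and 36 in QSC. Of 8 satellite cell markers 5 fell in Pax7-positive iMPCs, 6 in Pax7-negative iMPCs, 4 in ASC and 7 in MEF. With library size scaling 4, 3, 3 and 6 of them fell. They summed to 350, 218, 265 and 96.6 RPKM in the same order. Many of the endothelial, immune, erythroid and satellite cell markers fell together with the members described below, and their part in that fall was not tested. Bulk RNA cannot tell fewer cells of a type from less RNA per cell.

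RefSeq promoter sequences, on build GRCm38.p6, were at hand for 9 members. Because the counts were made with mm9, these coordinates are used for the sequences alone. The 250 bases before each start site were searched on both strands for TGANTCA, the AP-1 site, TGACGTCA, the cAMP response element that CREB and ATF proteins bind, TGACATCA, the variant described in the Jun promoter, the CArG box that SRF binds, and TGACGT, the shorter core of the cAMP element, which was added later and also lies inside TGACGTCA. The 4 stretches below are shown because they hold matches near the start sites of genes that were called lower than QSC in all 4 comparisons. Capitals mark the match, and each is written on the strand of the gene.
Fos, chr12:85473804-85473849, plus strand: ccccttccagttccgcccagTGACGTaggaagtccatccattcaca
Jun, chr4:95052240-95052287, minus strand: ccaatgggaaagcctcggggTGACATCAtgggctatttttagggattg
Atf3, chr1:191183334-191183361, minus strand: tggaagctattaatagcattACGTCAgc
Maff, chr15:79347471-79347518, plus strand: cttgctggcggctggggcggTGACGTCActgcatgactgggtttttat
In Atf3 the capitals are TGACGT read on the opposite strand, and the Maff match lies before the second of 3 annotated starts. TGACGT was found in 4 of 9 members (Fos, Atf3, Batf and Maff) and in 7.29% of 27025 genes, TGACGTCA in 1 member and 1.77% of genes, and TGACATCA in 2 members (Jun and Maff) and 3.41% of genes. TGANTCA and the CArG box were found in 0 of 9 members, against 7.82% and 1.62% of genes, which says only that these letters are not in this window. Of 18 other immediate early genes, from the list used below, 5 had TGACGT, 2 had TGACGTCA and 1 had TGACATCA. In the same 18 genes TGANTCA was found in 1 and the CArG box in 2. A match is a description of the letters and not evidence of binding.

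Most members were far lower in every one of the other 4 libraries than in QSC. The 10 genes together took 0.0723% of counts in Pax7-positive iMPCs, 0.102% in Pax7-negative iMPCs, 0.0724% in ASC and 0.0977% in MEF, against 0.952% and 1.38% in QSC of mouse 1 and mouse 3. Of the 10 genes, 9 fell in Pax7-positive iMPCs, where 9.31% of all genes tested fell (20.6% changed either way). In Pax7-negative iMPCs 8 fell (6.57% of all genes, 18.6% either way), in ASC 9 fell (8.24%, 20.1% either way) and in MEF 8 fell (8.03%, 19.4% either way). In these comparisons 0 members rose at an adjusted p below 0.05, by edgeR or by DESeq2, and 0 had a positive difference at an unadjusted p below 0.05. Of all genes 11.3%, 12.1%, 11.8% and 11.3% rose by edgeR, and 12.3%, 11.9%, 12.8% and 11.8% by DESeq2. Except where DESeq2 is named, the calls come from edgeR's quasi-likelihood test with Benjamini-Hochberg adjustment over all genes. The 4 comparisons share the QSC libraries. Only the QSC pair gave a measure of spread, so each lone library was assumed to vary like it. The median log2 difference of the members was -5.05 in Pax7-positive iMPCs, -3.84 in Pax7-negative iMPCs, -5.19 in ASC and -4.24 in MEF, while the median of all genes lay between -0.03 and 0.15. Library size scaling moved the median of all genes to between 0.59 and 0.86 and left 7, 6, 6 and 5 members called in the same order of groups, where 3.1%, 1.92%, 2.93% and 2.69% of all genes were called lower.

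**Figure D1:**
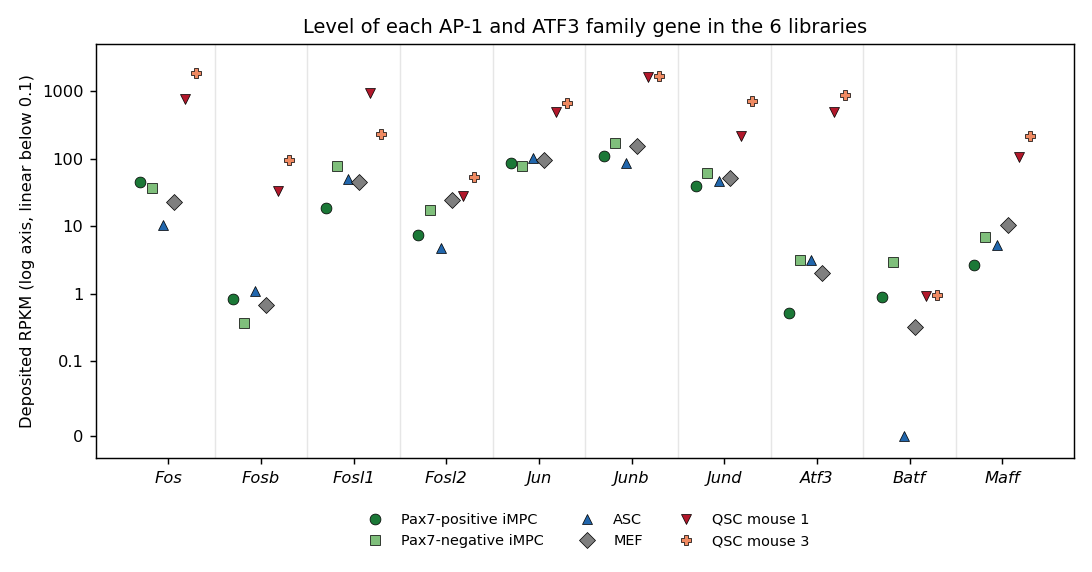
Deposited RPKM of each gene (y axis, logarithmic above 0.1 and linear below) in the 6 libraries, 1 point per library. For 9 of the genes both QSC points lie above all 4 other libraries, and Batf, at 0 in ASC and 2.96 in Pax7-negative iMPCs, is the exception.

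Among the Fos family, Fos, the founding partner of Jun in AP-1, was at 44.9 RPKM in Pax7-positive iMPCs, 36.1 in Pax7-negative iMPCs, 10.3 in ASC and 22.8 in MEF, against 775 and 1834 RPKM in QSC of mouse 1 and mouse 3. All 4 lie far below both mice, and ASC is the lowest of them. The log2 fold change was -5.52 ± 1.00 (SE) in Pax7-positive iMPCs (edgeR, Benjamini-Hochberg adjusted p = 0.00107) and -7.56 ± 1.11 in ASC (adjusted p = 0.000136). Against mouse 1 and mouse 3 alone the Pax7-positive difference in log2 CPM was -4.83 and -5.98. Fosb, a close relative of Fos that is likewise an immediate early gene, was at 0.84 RPKM in Pax7-positive iMPCs, 0.371 in Pax7-negative iMPCs, 1.09 in ASC and 0.676 in MEF, against 32.7 and 94.9 RPKM in QSC. It was the least abundant of the Fos family in all of these 4 libraries. Its log2 fold change of -8.11 ± 1.03 in Pax7-negative iMPCs rests on 34 counts there (edgeR, Benjamini-Hochberg adjusted p = 4.9e-05), and by mouse it was -7.13 and -8.57.

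Fosl1, which encodes Fra-1 and lacks the strong activation domain of Fos, followed another order. It was at 18.4 RPKM in Pax7-positive iMPCs, 76.8 in Pax7-negative iMPCs, 50.5 in ASC and 44.6 in MEF, against 949.8 RPKM in QSC of mouse 1 and 229.6 RPKM in QSC of mouse 3. Mouse 1 stood 4.403 times above mouse 3 (95% counting interval 4.31 to 4.50), and Fosl1 was the 1 member past a rule of size, at least 4-fold with 5 CPM in the higher library. By that rule 1.69% of all genes were higher in mouse 1, 0.73% were lower and 2.42% were either. Endothelial, erythroid and differentiating muscle markers were also higher in mouse 1, as given above, and their part in the Fosl1 level was not tested. The log2 fold change was -5.70 ± 1.05 in Pax7-positive iMPCs and -3.68 ± 0.94 in Pax7-negative iMPCs (edgeR, Benjamini-Hochberg adjusted p = 0.00121 and 0.0113). By mouse these were -6.40 and -4.26 for Pax7-positive and -4.39 and -2.25 for Pax7-negative iMPCs, so the size rests strongly on which mouse is used. With library size scaling Fosl1 did not pass in Pax7-negative iMPCs, ASC or MEF (edgeR, Benjamini-Hochberg adjusted p = 0.0997, 0.0745 and 0.0701).

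Fosl2, which encodes Fra-2, had the smallest fitted differences of the Fos family. Against mouse 3 alone Fosl1 differed less than Fosl2 in ASC, at -2.73 against -4.03 on the log2 scale, and the values in Pax7-negative iMPCs were -2.25 for Fosl1 and -2.26 for Fosl2. It was at 7.25 RPKM in Pax7-positive iMPCs, 17.3 in Pax7-negative iMPCs, 4.68 in ASC and 24.5 in MEF, against 27.5 and 52.5 RPKM in QSC. MEF lay just under mouse 1. Fosl2 fell in Pax7-positive iMPCs by 3.13 ± 0.73 and in ASC by 3.67 ± 0.75 on the log2 scale (edgeR, Benjamini-Hochberg adjusted p = 0.00608 and 0.00234). The differences of -1.91 ± 0.68 in Pax7-negative iMPCs and -1.33 ± 0.65 in MEF did not pass (adjusted p = 0.0584 and 0.163). The Pax7-negative value passed under DESeq2 (adjusted p = 0.0151). With library size scaling Fosl2 passed in ASC but not in Pax7-positive iMPCs (edgeR, Benjamini-Hochberg adjusted p = 0.0415 and 0.0599).

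Jun and Junb were the most abundant members by RPKM in each of the 4 libraries other than QSC. Jun, which can form AP-1 without a Fos partner, was at 86.3 RPKM in Pax7-positive iMPCs, 76.9 in Pax7-negative iMPCs, 103 in ASC and 95.5 in MEF, against 488 and 673 RPKM in QSC. These 4 values lie within a narrow band and well under both mice. Jun fell by 3.42 ± 0.81 in Pax7-positive iMPCs and by 3.07 ± 0.79 in ASC on the log2 scale (edgeR, Benjamini-Hochberg adjusted p = 0.00692 and 0.0111). With library size scaling Jun did not pass in ASC or MEF (edgeR, Benjamini-Hochberg adjusted p = 0.0554 and 0.0519). Junb, a Jun relative known to restrain Jun activity in many settings, was at 111 RPKM in Pax7-positive iMPCs, 169 in Pax7-negative iMPCs, 86.8 in ASC and 151 in MEF, against 1624 and 1677.5 RPKM in QSC. It ranked 43 of all genes by RPKM in both QSC libraries and differed least between the mice among the members with over 100 counts in every library. It fell by 4.57 ± 0.92 in Pax7-positive iMPCs (adjusted p = 0.00235), with -4.60 and -4.55 by mouse.

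Jund, usually the most evenly expressed Jun gene across tissues, was at 39.5 RPKM in Pax7-positive iMPCs, 61.1 in Pax7-negative iMPCs, 45.8 in ASC and 52.3 in MEF, against 217 and 715 RPKM in QSC. Mouse 3 stood 3.09 times above mouse 1 (95% counting interval 3.04 to 3.15), the largest excess of mouse 3 among the members. The log2 fold change in Pax7-positive iMPCs was -4.21 ± 0.93 (edgeR, Benjamini-Hochberg adjusted p = 0.00425), with -3.18 and -4.81 by mouse. Under library size scaling its log2 differences were -3.56 in Pax7-positive iMPCs, -2.93 in Pax7-negative iMPCs, -3.35 in ASC and -3.15 in MEF, and 0 of 4 passed (edgeR, Benjamini-Hochberg adjusted p between 0.0588 and 0.0843). In GENCODE M21 Jund is overlapped on the opposite strand by Gm11175, Junb by Prdx2 and Fosl1 by Ccdc85b. The library kit marks strand, but whether the authors counted by strand is not stated in the labels, so reads of these pairs may be mixed. Gm11175 had 501 counts in Pax7-positive iMPCs and 9770 in QSC of mouse 3, and its count was between 16.4% and 20.8% of the Jund count in all 6 libraries.

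Atf3, a stress-induced factor that can repress transcription or pair with Jun, showed the largest difference. It was at 0.519 RPKM in Pax7-positive iMPCs, 3.16 in Pax7-negative iMPCs, 3.13 in ASC and 2.01 in MEF, against 488 and 882 RPKM in QSC. The Pax7-positive library had 26 counts, against 27160 and 48609 in QSC. The log2 fold change was -11.02 ± 1.17 in Pax7-positive iMPCs, -8.46 ± 1.04 in Pax7-negative iMPCs, -8.35 ± 1.04 in ASC and -9.03 ± 1.07 in MEF (edgeR, Benjamini-Hochberg adjusted p = 1.83e-05, 3.89e-05, 2.91e-05 and 2.51e-05). Maff, a small Maf protein that binds DNA but has no activation domain of its own, was at 2.64 RPKM in Pax7-positive iMPCs, 6.94 in Pax7-negative iMPCs, 5.17 in ASC and 10.2 in MEF, against 106 and 215 RPKM in QSC. It fell by 6.59 ± 0.89 in Pax7-positive iMPCs, and its log2 fold change in MEF was -4.60 ± 0.80 (edgeR, Benjamini-Hochberg adjusted p = 0.000111 and 0.000753).

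Batf, a partner of Jun best known from lymphocytes, was near the detection limit and did not pass in any of the 4 comparisons. It had 22 counts in Pax7-positive iMPCs, 69 in Pax7-negative iMPCs, 0 in ASC and 7 in MEF, against 26 in each QSC library. With ASC set at the floor of 3 counts it was 9.34-fold lower in ASC than in QSC, and the lower 95% counting limit at 0 counts was 7.33-fold (adjusted p = 0.0564 by edgeR's quasi-likelihood test with Benjamini-Hochberg adjustment), and DESeq2 placed it past the threshold (adjusted p = 0.0383). The log2 difference was 0.95 ± 1.36 in Pax7-negative iMPCs and -0.77 ± 1.46 in Pax7-positive iMPCs, both smaller than their SE (adjusted p = 0.66 and 0.744).

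**Figure D2:**
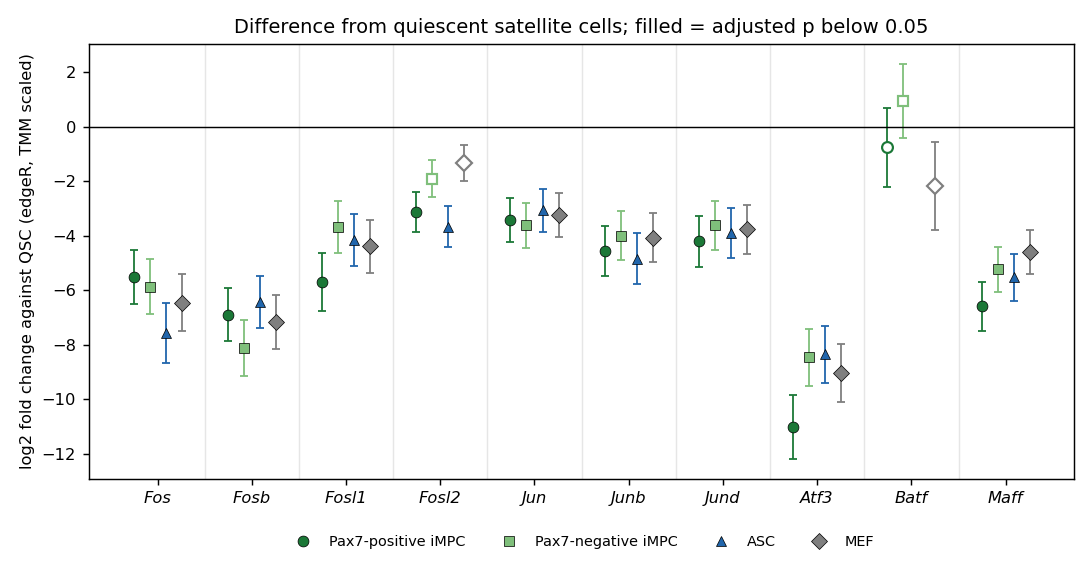
Fitted log2 fold change of each gene against QSC (y axis, points with SE bars) for the 4 lone libraries, filled where the adjusted p was below 0.05. Atf3 lies lowest, at -11.02 in Pax7-positive iMPCs, and Batf in ASC is left out because it had 0 counts there.

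The makeup of each family differed between libraries. Fos held 62.9% of the summed Fos family RPKM in Pax7-positive iMPCs, 27.6% in Pax7-negative iMPCs, 15.4% in ASC and 24.7% in MEF, against 43.4% and 82.95% in QSC of mouse 1 and mouse 3. Fosl1 held 25.8%, 58.8%, 75.9% and 48.1% in the same 4 libraries, against 53.2% and 10.4% in QSC. Fos was thus the leading Fos family transcript in Pax7-positive iMPCs and in mouse 3, and Fosl1 in the other 4 libraries. Since the QSC mice span 43.4% to 82.95%, the Fos share of Pax7-positive iMPCs lies within the QSC range. In the Jun family Junb led in 5 libraries, with 46.8% in Pax7-positive iMPCs and 55.0% in Pax7-negative iMPCs, and Jun led in ASC with 43.8%. Junb held 69.7% and 54.7% of the Jun family in QSC. By share of counts, which favours long transcripts, Jun led in Pax7-positive iMPCs at 42.2%, against 37.1% for Junb, and Fosl2 led in MEF at 53.6%, against 28.4% for Fosl1. No test was made on these shares.

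**Figure D3:**
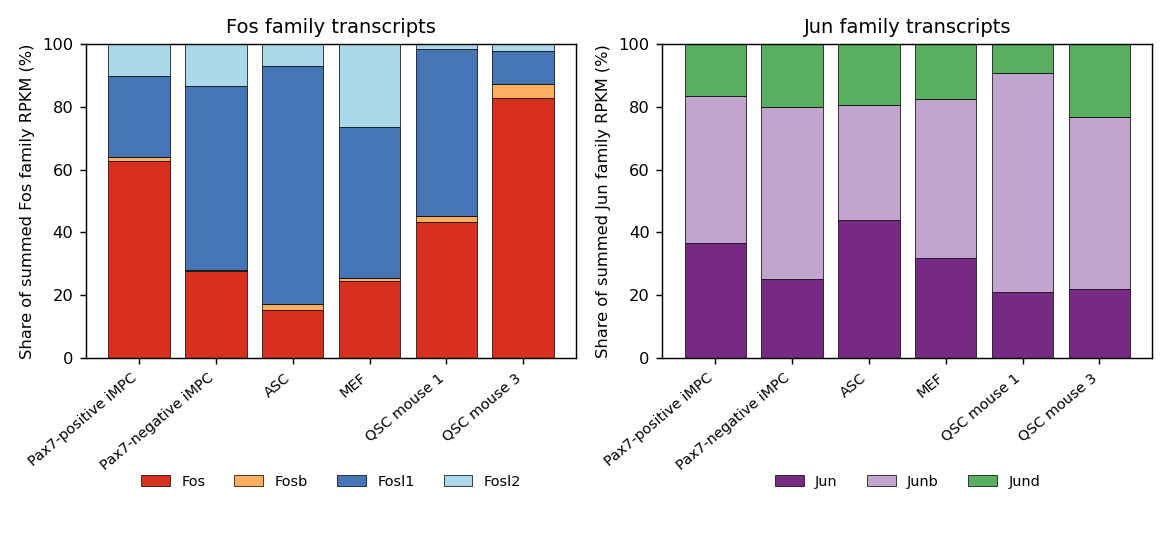
Share of summed RPKM (y axis, percent) held by each gene of the Fos family (left) and the Jun family (right) in each library. The Fos part is 62.9% in Pax7-positive iMPCs and 27.6% in Pax7-negative iMPCs, and the Fosl1 part is largest in ASC at 75.9%.

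The 2 iMPC fractions were sorted from reprogrammed cultures, and their ratio asks how AP-1 transcripts differ with the Pax7 reporter. With 1 library on each side no test was made, and the 95% intervals cover counting error only. Pax7-positive iMPCs had 0.246 times the Fosl1 CPM of Pax7-negative iMPCs (interval 0.228 to 0.266), 0.429 times the Fosl2 CPM (0.3997 to 0.461) and 0.169 times the Atf3 CPM (0.107 to 0.257). Maff stood at 0.390 times (0.317 to 0.479) and Batf at 0.304 times (0.179 to 0.497). Junb and Jund stood at 0.673 and 0.664 times. Fos went the other way at 1.277 times, as did Fosb at 2.33 times (1.54 to 3.58) on 83 and 34 counts, and Jun was at 1.15 times. By the same rule of size 1 member, Fosl1, was lower in Pax7-positive iMPCs and 0 were higher, against 4.3% and 0.134% of all genes (4.43% either way). Atf3 missed that rule because its higher library had 4.965 CPM. Fibroblast markers summed to 450 RPKM in Pax7-positive and 2051 RPKM in Pax7-negative iMPCs and differentiating muscle markers to 1658 and 3271 RPKM, and their part in these ratios was not tested.

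Against ASC, Pax7-positive iMPCs had 4.13 times the Fos CPM (3.72 to 4.58), 0.344 times the Fosl1 CPM (0.317 to 0.374) and 0.157 times the Atf3 CPM (0.0985 to 0.241). Fos and Atf3 passed the rule of size, 1 higher and 1 lower, beside 2.29% and 5.11% of all genes (7.4% either way). Differentiating muscle markers summed to 6688 RPKM in ASC and 1658 RPKM in Pax7-positive iMPCs, and their part in these ratios was not tested. Xist was at 0.0431 CPM in ASC and 39.1 CPM in Pax7-positive iMPCs, so the ratios to ASC include any difference between the sexes. Against MEF, 0 members passed the rule in Pax7-positive iMPCs (8.91% of all genes, 3.24% higher and 5.67% lower) or in Pax7-negative iMPCs (7.11%, 4.73% higher and 2.38% lower). The members nearest to it were Maff at 0.251 times (0.206 to 0.305) and Atf3 at 0.252 times (0.156 to 0.393) in Pax7-positive iMPCs, and Batf at 8.91 times (4.10 to 23.0) in Pax7-negative iMPCs on 69 and 7 counts. Forskolin in the iMPC medium raises cAMP, to which Fos is known to respond, and the labels do not give the medium of the other cultures, so its part in these ratios was not tested.

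**Figure D4:**
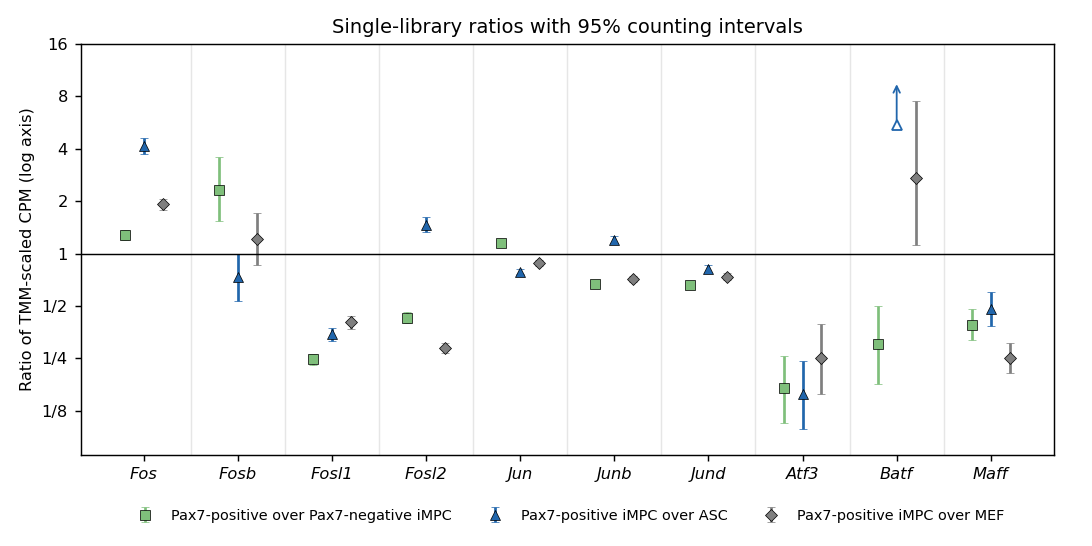
Ratio of TMM-scaled CPM (y axis, log scale) of Pax7-positive iMPCs to Pax7-negative iMPCs, ASC and MEF, with 95% counting intervals. Fos lies above 1 in all 3 ratios and Fosl1, Atf3 and Maff below 1, and the open triangle with an arrow marks Batf against ASC with its 0 counts set at the floor of 3, at 5.48, where the lower 95% counting limit is 4.09.

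Genes around AP-1 were followed through lists of related genes. Of 34 other bZIP genes tested, among them relatives of the members such as Batf3, Jdp2 and the small Mafs, 14 fell and 0 rose in Pax7-positive iMPCs, with 12 falling in each of the other 3 groups against QSC. Under library size scaling these counts were 8, 3, 7 and 4, with 0 rising. Of all genes tested 9.31% fell in Pax7-positive iMPCs, 6.57% in Pax7-negative iMPCs, 8.24% in ASC and 8.03% in MEF. Under library size scaling 3.1%, 1.92%, 2.93% and 2.69% of all genes fell, and between 10.7% and 12.5% rose at either scaling. Mafk, another small Maf, was at 9.55 RPKM in Pax7-positive iMPCs against 478 and 452.9 RPKM in QSC and fell by 6.28 ± 0.92 on the log2 scale (edgeR, Benjamini-Hochberg adjusted p = 0.000197). Hlf, a PAR-domain bZIP factor, fell by 5.53 ± 1.63 (adjusted p = 0.0235) from a low level. It was at 0.0385 RPKM in Pax7-positive and 0.789 RPKM in Pax7-negative iMPCs, against 0.685 and 1.66 RPKM in QSC. Of 26 other immediate early genes 21 fell and 0 rose in Pax7-positive iMPCs, with 20, 18 and 19 falling in Pax7-negative iMPCs, ASC and MEF, and with 16, 13, 17 and 14 under library size scaling. Gadd45b, a stress-induced growth arrest gene, was at 9.14 RPKM in Pax7-positive iMPCs, against 418 and 625 RPKM in QSC. Nr4a3, an orphan nuclear receptor, was at 0 RPKM in Pax7-positive iMPCs, against 25.6 and 99.5 RPKM in QSC.

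The kinases and partners upstream of these genes had smaller median differences than the members. Of 22 genes of the MAP kinase cascades and of SRF and its partners, 1 rose and 3 fell in Pax7-positive iMPCs. In Pax7-negative iMPCs 2 rose and 2 fell, in ASC 4 and 3, and in MEF 3 and 3. In Pax7-positive iMPCs their median log2 difference was 0.17, and 11.3% of all genes rose and 9.31% fell. With library size scaling 1 of the 22 rose and 0 fell there, against 11.7% and 3.1% of all genes. Rps6ka2, a ribosomal S6 kinase downstream of ERK, rose by 3.25 ± 0.58 to 16.02 RPKM, against 0.98 and 1.13 RPKM in QSC (edgeR, Benjamini-Hochberg adjusted p = 0.00101). Map3k5, a stress kinase above JNK and p38, fell by 3.62 ± 1.01 and Rps6ka3 by 2.73 ± 0.72 (adjusted p = 0.0169 and 0.0124). Of 11 MAP kinase phosphatases, which switch these kinases off, 2 rose and 4 fell, against 1 and 2 under library size scaling. Dusp1, itself an immediate early gene, fell by 4.73 ± 0.84 to 35.6 RPKM, against 635 and 543 RPKM in QSC, and Dusp8 fell by 6.25 ± 0.95. Dusp9 and Dusp7 rose by 4.54 ± 1.11 and 2.303 ± 0.70 (adjusted p = 0.00822 and 0.0273).

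Of 20 genes described elsewhere as AP-1 targets, 3 rose and 8 fell in Pax7-positive iMPCs, 6 rose and 5 fell in Pax7-negative iMPCs, 4 rose and 9 fell in ASC, and 6 rose and 5 fell in MEF. Of all genes between 11.3% and 12.1% rose and between 6.57% and 9.31% fell in these comparisons. The median log2 difference of this list was -1.36 in Pax7-positive iMPCs, -0.40 in Pax7-negative iMPCs, -1.16 in ASC and -0.57 in MEF. In the same order the median of all genes was -0.03, 0.15, 0 and 0. Under library size scaling the list stood at -0.675, 0.33, -0.57 and 0.06 and all genes at 0.60, 0.86, 0.59 and 0.61. The median of the list thus lay below that of all genes at both scalings, and these medians were not tested. The calls went both ways, and at library size scaling 7 rose and 4 fell in Pax7-negative iMPCs (12.5% and 1.92% of all genes). In MEF 6 rose and 4 fell at that scaling (10.7% and 2.69% of all genes). Hmox1, heme oxygenase 1, was at 27.9 RPKM in Pax7-positive iMPCs against 4800 and 1320 RPKM in QSC, with a log2 fold change of -7.48 ± 1.28, and Hbegf, an EGF family ligand, fell by 5.95 ± 0.84 (edgeR, Benjamini-Hochberg adjusted p = 0.000682 and 0.000144). Mmp9, a gelatinase whose promoter is a textbook AP-1 target, was at 62.1 RPKM in Pax7-positive iMPCs and 239.8 in Pax7-negative iMPCs, against 0.441 and 0.934 RPKM in QSC. It rose by 5.84 ± 0.66 and 7.75 ± 0.71 in the iMPC fractions (adjusted p = 3.3e-05 and 4.11e-06), while ASC at 0.815 RPKM and MEF at 0.799 RPKM did not pass (adjusted p = 0.762 and 0.701). Mmp10, a stromelysin, was at 0.64 RPKM in Pax7-positive and 11.6 RPKM in Pax7-negative iMPCs and at 0 in both QSC libraries.

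The genes whose pattern over the 6 libraries lay closest to a member were found by the root mean square difference of centred log2 CPM. The closest to Jund was the overlapping Gm11175, at 0.12. Closest to Maff were Ecm2, Gadd45b and Tshr, at 0.17, 0.22 and 0.25. Closest to Atf3 were Nr4a3, Arl4d and Gm8818, at 0.59, 0.77 and 0.77, and closest to Fosl1 were Robo4, H2-T10 and Srxn1, at 0.32, 0.39 and 0.48. Robo4 and H2-T10 were near the floor, at or below 0.169 CPM outside QSC and at or below 5.39 CPM in QSC. Outside QSC Gm8818 was at or below 0.187 CPM and Ecm2 at or below 0.64 CPM. Srxn1, a sulfiredoxin, was at 61.9 CPM in Pax7-positive iMPCs and 82.8 CPM in ASC, against 3454 CPM in QSC of mouse 1 and 736 CPM in mouse 3. Closest to Fos were Galnt15, Gm21955 and Tbx6, at 0.34, 0.44 and 0.49, all of them at or below 0.304 CPM outside QSC.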

How the data were processed

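The submitters' processing notes name Picard 1.100, STAR 2.3.0, HTSeq 0.6.0, edgeR and build mm9, with no order, annotation or strand setting. The authors deposited raw counts per Ensembl gene for each library and a table of RPKM values, which equal counts per kilobase and divided by each library's total (largest relative deviation of the implied gene length 9.51e-15). Here the counts were fitted with edgeR 4.0.16 in R 4.3.3 (TMM scaling, default expression filter by group, 1 coefficient per group over 6 libraries), with 1 residual and 16.3 prior degrees of freedom and a biological coefficient of variation of 0.476. SEs were derived from the F statistic. Alternatives included DESeq2 1.42.0, other scalings and filters. Levels between genes are compared in RPKM, and counting intervals are exact (Clopper-Pearson) at 95%. PCR reads are not independent molecules, so intervals and floors cover counting error only. The labels number the QSC mice, and other groups have 1 library each. Named genes of the other lists were the most changed called genes in Pax7-positive iMPCs, at most 2 per direction. The members and lists were chosen with earlier results of these data known.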

Additional observations from a re-analysis of the deposited data

How the results depend on the processing

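Of 596 log2 values of the members recomputed under other settings, 0 changed sign. Library size scaling left 5 of 10 members called in MEF (2.69% of all genes), against 8 (8.03%), and gave 2 members (Fosl1 and Atf3) at least 4-fold lower in Pax7-positive than in Pax7-negative iMPCs, against 1, as did deposited RPKM with 2. With 1 mouse left out no residual degrees of freedom remained, so only sizes are given. Against mouse 1 alone the median log2 CPM difference of the members was -4.71 in Pax7-positive iMPCs, -4.20 in Pax7-negative iMPCs, -4.86 in ASC and -4.08 in MEF. Against mouse 3 alone it was -4.68, -4.10, -4.66 and -4.21. Calls with both mice at a preset coefficient of variation of 0.4 rest on that number, which lies below the fitted 0.476, and say nothing of stability. They numbered 9 in Pax7-positive iMPCs, 9 in Pax7-negative iMPCs, 10 in ASC and 9 in MEF. Of all genes 20.4%, 15.8%, 18.6% and 18.5% were called lower at this preset. No paired analysis was possible because only the QSC group has more than 1 library. Batf and the Pax7-positive Atf3 count are limited by depth.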

Other observations

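Jun, Junb and Jund each had 1 exon in GENCODE M21 and the other members 3 or 4. The 3′ untranslated region of 9 of 10 members held at least 1 ATTTA, as did that of 62.2% of 20830 protein-coding genes. ATTTA is a short motif found in the AU-rich elements of unstable messages, and 1 copy alone does not mark such an element. Fos had 4.91 per kilobase, Fosb 0.466 and Batf 0. The median was 2.2 over the members and 1.15 over all genes. Junb is overlapped on the opposite strand by Prdx2, a peroxiredoxin, whose count was 174% of the Junb count in Pax7-positive iMPCs and 3.71% and 2.44% of it in QSC of mouse 1 and mouse 3. Fosl1 is overlapped likewise by Ccdc85b, at 38.2% of the Fosl1 count in Pax7-positive iMPCs and 2.06% and 6.72% in QSC.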
